A study of Mus musculus with 18 samples.

Results

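A set of 10 genes for histone variants and linker histones, out of 29717 gene symbols, was followed through 3 populations of mouse bone marrow progenitors. The genes were listed by symbol: H2afy, H2afz, H2afx, H2afv and H2afj (variants of histone H2A), H3f3a and H3f3b (histone H3.3), H1f0 and Hist1h1c (linker histones) and Hist1h2bc (a histone H2B gene). All 10 symbols were present in the count tables. The list was selected on earlier results measured in these same libraries, and which values led to it is not recorded, so levels and differences between populations are given as descriptions without a test. Tests between genotypes are given per gene, and the same limit holds for them.

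The 18 libraries came from lineage-negative bone marrow cells of BALB/c mice, sorted as multipotent progenitors MPP4 (4 mutant and 4 control libraries), multipotent progenitors MPP1 (2 mutant and 2 control) and haematopoietic stem cells (HSC, 3 mutant and 3 control). Mutants carry a genotype field of dnmt1-/-, while the series' design text describes a missense, hypomorphic change in Dnmt1, the maintenance DNA methyltransferase; controls are wild type. Libraries were made by CEL-Seq2, which primes on the poly(A) tail and counts tagged molecules (UMIs) at the 3′ end of transcripts. The labels give neither the age of the mice nor the number of cells per library, and they do not say whether any animals were pooled. The columns are headed with 8 ID numbers that recur across populations, and the labels do not tie them to animals.

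Replication-dependent histones are made in S phase from mRNAs that end in a stem-loop and not in a poly(A) tail. Histone variants are encoded by separate genes, usually with polyadenylated mRNAs, and are placed in chromatin outside replication by dedicated chaperones and remodellers. MacroH2A carries a large non-histone domain and is linked to stable silencing, H2A.Z sits at promoters, H2A.X is phosphorylated around DNA breaks, H3.3 marks active genes and heterochromatin, and linker histone H1 binds the DNA that enters and leaves the nucleosome. Because capture needed a poly(A) tail, the assay bears on the polyadenylated transcripts of these genes, also for Hist1h1c and Hist1h2bc, which lie among the replication-dependent histone genes.

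RefSeq upstream sequences (GRCm38.p6) were found for 8 of the 10 genes, all but H2afx and Hist1h2bc. A stretch of 150 bases is shown for each of 4 genes because they had the patterns described below: H2afy differed most between populations, H2afz and H2afv encode the pair of H2A.Z proteins, and Hist1h1c separated the genotypes. Capitals mark the CCAAT box (letters CCAAT), the CHR element of cell cycle genes (letters TTTGAA), the TATA box (letters TATAAA), the E2F site (letters TTCCCGC), the histone octamer (letters ATGCAAAT) or the H1 box (letters AAACACA). They were searched on both strands of the 250 bases before each start, with overlapping matches allowed. The H2afy stretch, chr13:56135651-56135800 on the minus strand, covers bases -250 to -101, because bases closer to the RefSeq start overlap an annotated exon. The other stretches end at base -1: H2afz at chr3:137864337-137864486 (plus), H2afv at chr11:6444444-6444593 (minus) and Hist1h1c at chr13:23738657-23738806 (plus). The H2afz stretch also overlaps 1 annotated exon, though it lies outside the annotated span of H2afz.
H2afy: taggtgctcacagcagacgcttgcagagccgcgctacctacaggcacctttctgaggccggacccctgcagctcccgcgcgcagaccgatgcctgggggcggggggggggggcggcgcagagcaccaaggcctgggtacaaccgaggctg
H2afz: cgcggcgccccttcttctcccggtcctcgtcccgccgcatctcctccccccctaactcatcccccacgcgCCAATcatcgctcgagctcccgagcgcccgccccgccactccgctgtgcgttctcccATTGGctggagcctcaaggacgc
H2afv: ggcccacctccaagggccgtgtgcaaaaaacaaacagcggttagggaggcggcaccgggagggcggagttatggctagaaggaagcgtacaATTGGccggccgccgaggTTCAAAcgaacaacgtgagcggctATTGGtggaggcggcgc
Hist1h1c: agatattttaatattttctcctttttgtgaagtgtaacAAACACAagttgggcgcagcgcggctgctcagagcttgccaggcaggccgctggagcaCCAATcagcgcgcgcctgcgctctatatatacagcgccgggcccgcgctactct

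None of the searched letters occurred in the 250 bases before the RefSeq start of H2afy or H1f0. CCAAT was found in the remaining 6 genes, with 4 copies in H2afv and in H3f3b, 3 in H2afj, 2 in H2afz and 1 each in H3f3a and Hist1h1c; 33.85% of 32851 promoters held it. The CHR letters stood once, in H2afv at bases -41 to -36 (15.99% of promoters), the H1 box in Hist1h1c and in H3f3a (6.25%), and the TATA box (12.37%) and the octamer (1.6%) in H3f3b. The E2F letters matched none of the 8 (3.82% of promoters). CpG dinucleotides numbered 35 for H3f3a, 29 for H2afy, 28 for H2afz, 24 for H1f0, 19 each for H2afv and H3f3b, 17 for Hist1h1c and 9 for H2afj, against a median of 6 over all promoters. The windows of H2afy, H3f3a and H3f3b lie inside the annotated spans of these genes, which are given below. Their matches and CpG counts are therefore not those of sequence upstream of the whole gene. All matches are letters in a window, and the data hold no measurement of factor binding or of methylation at them.

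Total estimated counts per library ran from 354642 to 1943562, with a median of 745850.5. Flt3 ranged from 316 to 623 CPM (counts scaled to a common library size) in MPP4, 16.7 to 56.1 in MPP1 and 12.9 to 41.2 in HSC. The stem cell gene Esam ranged from 0.0 to 10.9, 37.5 to 66.2 and 24.2 to 91.3 CPM in the same order. MPP4 thus differed from the other sorts in both transcripts, while MPP1 and HSC overlapped in both and were not told apart by them. Dnmt1 itself overlapped between genotypes in MPP4 (230.0 to 319 CPM in mutants, 240.0 to 402 in controls), narrowly in MPP1 (224 to 290.0 in mutants, 289 to 296 in controls) and in HSC (118 to 308 in mutants, 98.3 to 277 in controls); a missense change need not alter the transcript, so its level does not check the label. Some libraries stood apart by transcripts of other cell types. The summed erythroid markers reached 238651 CPM in MPP4 mutant 2, 45658 in MPP4 control 4, 32373 in MPP1 control 2 and 16166 in HSC mutant 1, against 477 to 1547 in the other 14 libraries. Summed neutrophil markers reached 41533 CPM in MPP4 mutant 2 and 9427 CPM in MPP1 control 2. Summed B cell markers reached 38606 CPM in HSC control 1 and 13351 CPM in MPP4 mutant 3. In sorted bulk samples, fewer cells of a type and less RNA per cell cannot be told apart. All levels below are CPM after scaling by TMM (trimmed mean of M values, edgeR), and are compared within a gene only.

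H2afy, which encodes macroH2A1, set MPP4 apart. It measured 3602, 2711, 2963 and 3699 CPM in the 4 MPP4 mutants and 2956, 3234, 3027 and 3259 CPM in the 4 MPP4 controls. In MPP1 it measured 804 and 1178 CPM in mutants and 1071 and 1008 CPM in controls. In HSC it measured 640.5, 665 and 684 CPM in mutants and 962, 622 and 714 CPM in controls. Every MPP4 library lay above every MPP1 and HSC library, MPP1 and HSC overlapped, and in each population the genotypes overlapped. The overlap of MPP1 and HSC rested on HSC control 1 (962 CPM), the library with 38606 CPM of B cell markers. The other HSC libraries lay at 622 to 714 CPM, below the lowest MPP1 library at 804 CPM. The means were 3181 ± 337 CPM in MPP4 (SD, n = 8), 1015 ± 157 in MPP1 (n = 4) and 715 ± 125 in HSC (n = 6). In edgeR's joint model of the 18 libraries, blocked by ID number, the log2 difference was 2.19 (SE 0.14) for MPP4 minus HSC, a 4.57-fold ratio, 1.64 (SE 0.16) for MPP4 minus MPP1 and 0.55 (SE 0.16) for MPP1 minus HSC. Ranked by mean, the groups ran from MPP4 mutants and MPP4 controls through MPP1 controls and MPP1 mutants to HSC controls and HSC mutants, and among neighbours the step from MPP4 controls to MPP1 controls alone had no overlap.

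Of the 10 genes, H2afy alone had no overlap between MPP4 and HSC (4.39% of 10613 genes tested) or between MPP4 and MPP1 (5.95%), and none of the 10 had none between MPP1 and HSC (1.64%). Its MPP4 minus HSC difference stayed between 2.03 and 2.37 under 26 alternative settings, which include leaving out each library that stood apart. It was present within each genotype, at 2.36 (SE 0.20) in mutants and 2.03 (SE 0.20) in controls for MPP4 minus HSC. The deposited counts of this gene were high enough for the UMI supply to matter. Its highest value, 7295 in MPP4 control 2, corresponds to 3406 distinct UMIs of the limited set that 6 random bases allow, so 114.2% was added by the collision correction and small differences among MPP4 libraries are less certain than the CPM values imply. The gene lies at chr13:56073619-56136361 (GRCm38, minus strand, up to 9 exons), and the antisense gene Gm47071 overlaps it; whether counting used strand is not given in the sources used here. Over the 18 libraries, the genes most like H2afy in log2 CPM, of 4017 searched, were Sh2d5 (Pearson r 0.985), Satb1 (0.978), a chromatin organiser of lymphoid cells, and Cdk19 (0.961), a kinase of the Mediator complex. These points share libraries, batches and population, so the correlations describe one contrast of populations.

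**Figure D1:**
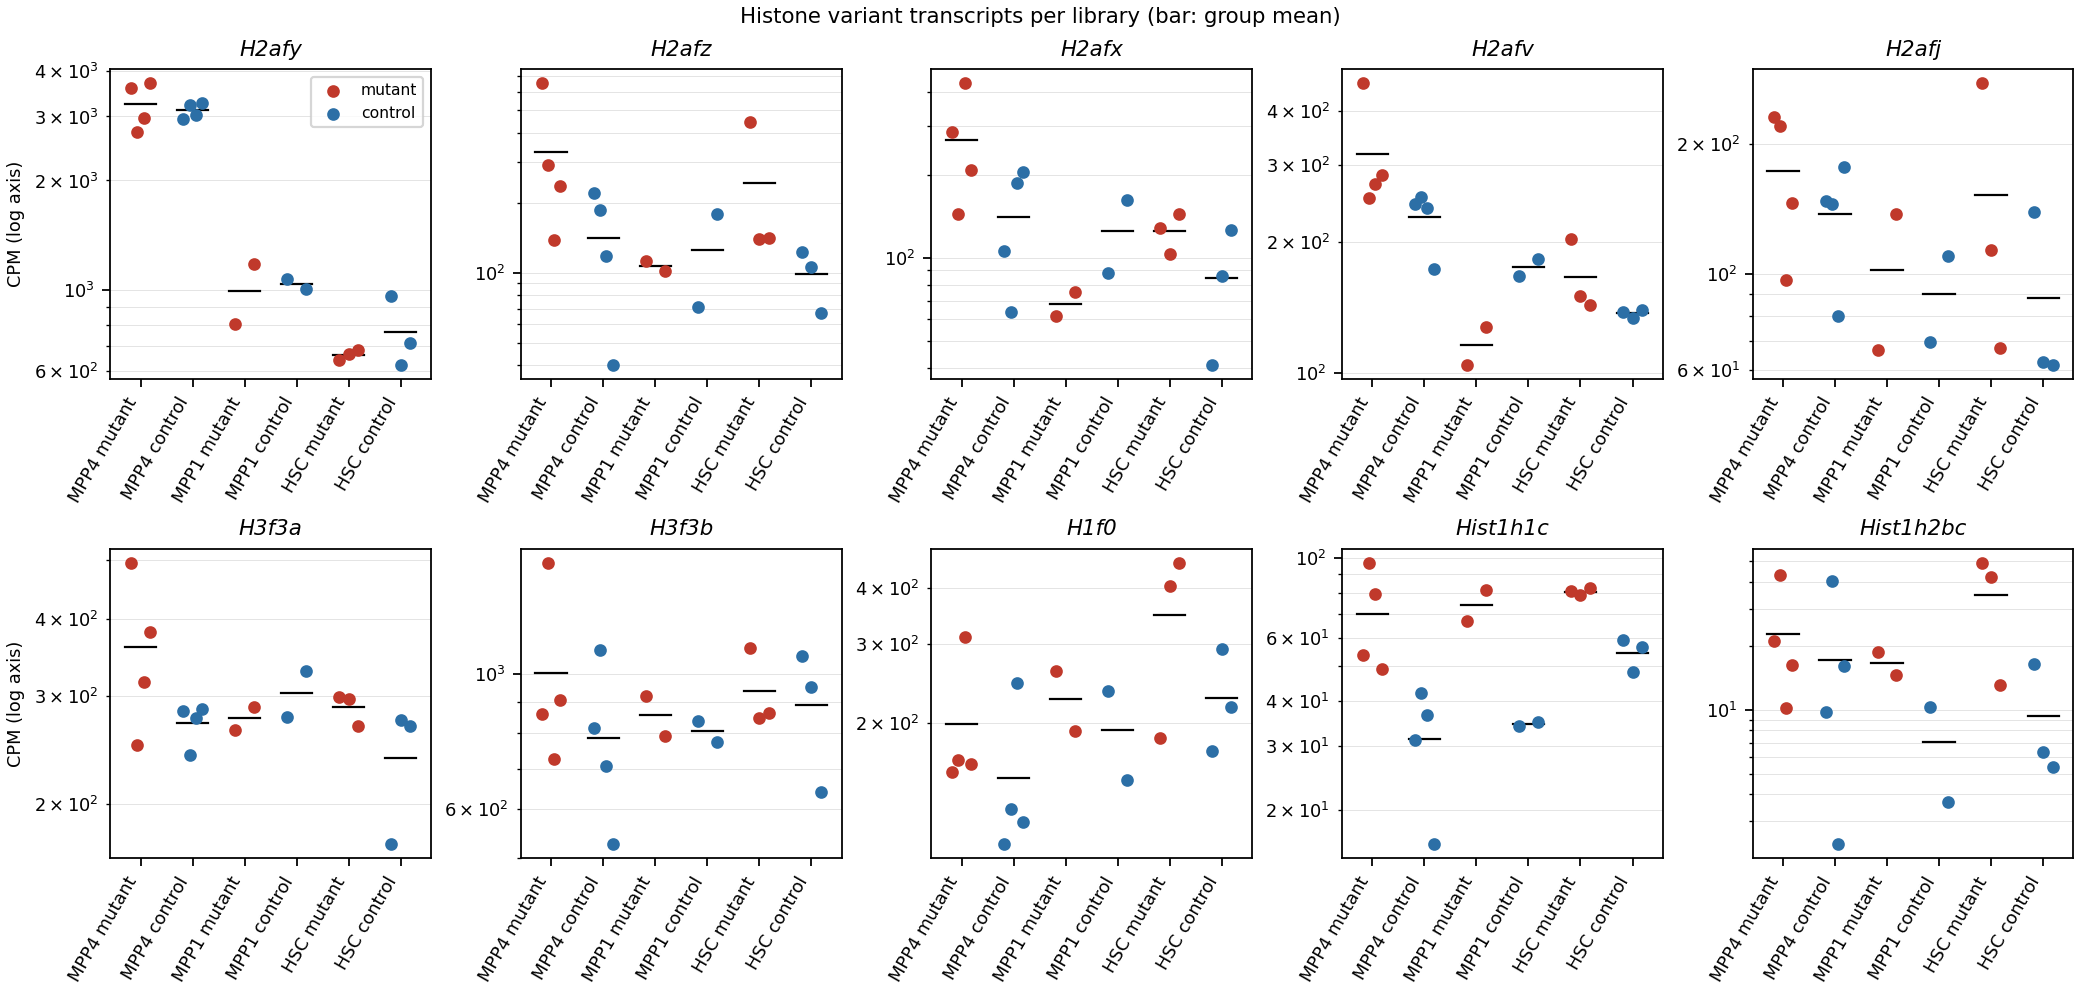
Level of each of the 10 genes in every library, in CPM on a log axis with its own range per panel, by population and genotype; points are libraries and bars are group means. H2afy lies between 2711 and 3699 CPM in MPP4 and no higher than 1178 CPM elsewhere, and in Hist1h1c the mutants lie above the controls of their own population in all 3 populations.

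H2afz and H2afv encode H2A.Z.1 and H2A.Z.2, proteins that differ at few residues. H2afz measured 653, 290.5, 138 and 237 CPM in MPP4 mutants, against 219.8, 186, 118 and 40.2 CPM in MPP4 controls. The MPP1 libraries gave 112.2 and 102 CPM in mutants, against 71.1 and 178.5 CPM in controls. The HSC libraries gave 446, 139.7 and 141 CPM in mutants, against 123, 106 and 67.1 CPM in controls. The highest library of MPP4 and the highest of HSC were both mutant 1, both of batch A and with the same ID number; the HSC genotypes did not overlap and those of MPP4 and MPP1 did. MPP4 minus HSC was 0.40 (SE 0.32) on the log2 scale and MPP1 minus HSC 0.09 (SE 0.40). By genotype, MPP1 minus HSC was -0.37 (SE 0.57) in mutants and 0.55 (SE 0.57) in controls. Without MPP1 control 2 it was -0.44 and without MPP1 control 1 it was 0.72, while MPP4 minus HSC was 0.24 without HSC control 1 and 0.61 without HSC control 2. No neighbouring groups in the order of means were free of overlap.

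H2afv had the larger estimates of the pair for MPP4 against the other populations. It measured 462.5, 252, 271 and 285 CPM in MPP4 mutants, against 245, 253, 239 and 173 CPM in MPP4 controls. MPP1 values were 104 and 127.2 CPM in mutants, against 167 and 182 CPM in controls. HSC values were 203.3, 150.0 and 143.1 CPM in mutants, against 138, 133 and 139.6 CPM in controls. MPP4 libraries were mostly the highest, and the mutants lay above the controls in HSC but below them in MPP1, without overlap in either. Its log2 difference was 0.86 (SE 0.13) for MPP4 minus HSC, 0.81 (SE 0.15) for MPP4 minus MPP1 and 0.05 (SE 0.15) for MPP1 minus HSC. Within genotypes, MPP4 minus MPP1 was 1.31 (SE 0.22) in mutants and 0.31 (SE 0.21) in controls.

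The 2 H2A.Z genes differed in what their counts can tell apart. H2afz (chr3:137864487-137866922, plus strand) shares 28.6% of the 30-base words in the last 300 bases of its transcripts with other genes, most of them with Gm8203, so its reads could be split with that copy. H2afv (chr11:6427229-6444443, minus strand) shares none. The genes most like H2afz were Smdt1 (r 0.968), Ncaph2 (0.919) and Hint1 (0.907), and those most like H2afv were Rfc5 (0.915), Ccnb2 (0.89) and Arhgdib (0.881). Rfc5 is a subunit of the clamp loader of DNA replication and Ccnb2 is a mitotic cyclin.

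H2afx, the gene of the DNA damage variant, was the other member with a population difference above 1 on the log2 scale. It measured 285.5, 144.2, 429 and 209 CPM in MPP4 mutants, against 106, 63.4, 187 and 205 CPM in MPP4 controls. Its MPP1 levels were 61.45 and 75.05 CPM in mutants, against 88.2 and 162 CPM in controls. Its HSC levels were 128.1, 104 and 145 CPM in mutants, against 40.97, 86.2 and 126 CPM in controls. The populations overlapped, with the 2 MPP1 mutants among the lowest libraries, and the genotypes had no overlap in MPP1 alone. The log2 difference was 1.16 (SE 0.15) for MPP4 minus HSC, 1.45 (SE 0.18) for MPP4 minus MPP1 and -0.29 (SE 0.19) for MPP1 minus HSC. By genotype, MPP1 minus HSC was -0.83 (SE 0.28) in mutants and 0.26 (SE 0.25) in controls, so the pooled value averages opposite signs, and MPP4 minus MPP1 was 2.08 (SE 0.27) in mutants and 0.81 (SE 0.24) in controls. H2afx is a single-exon gene at chr9:44334694-44336077 (plus strand). Its nearest patterns were those of Ncapd2 (r 0.846), a condensin subunit, Tubb5 (0.824), a tubulin, and Tpx2 (0.822), a spindle assembly factor.

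H2afj, an H2A variant known from senescent human cells, ranged from 97.1 to 231 CPM in MPP4 mutants and from 80.2 to 177 CPM in MPP4 controls. It ranged from 66.8 to 138 CPM in MPP1 mutants and from 69.7 to 110.4 CPM in MPP1 controls. In HSC it ranged from 67.4 to 276 CPM in mutants and from 61.8 to 139 CPM in controls. The 6 groups overlapped from one to the next, and the differences were 0.33 (SE 0.15) for MPP4 minus HSC, 0.20 (SE 0.19) for MPP4 minus MPP1 and 0.14 (SE 0.19) for MPP1 minus HSC. The gene, at chr6:136808244-136810074 (plus strand), shares 12.4% of its end words with other genes, so part of its count is uncertain. Atp5d (r 0.925), Erp29 (0.898) and Pgls (0.894) had the most similar patterns.

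H3f3a and H3f3b, which encode the same H3.3 protein, had estimates within 0.4 of 0 on the log2 scale in all 3 population comparisons. H3f3a ranged from 249.6 to 495 CPM in MPP4 mutants and 240.3 to 285 CPM in MPP4 controls, with 264.5 to 288 CPM in MPP1 mutants, 277 to 329 CPM in MPP1 controls, 268 to 299 CPM in HSC mutants and 172 to 274 CPM in HSC controls. H3f3b ranged from 725.5 to 1523 CPM in MPP4 mutants and 526 to 1094 CPM in MPP4 controls, with 792 to 922 CPM in MPP1 mutants, 775 to 838 CPM in MPP1 controls, 847 to 1103 CPM in HSC mutants and 642 to 1070.0 CPM in HSC controls. Both genes overlapped between all neighbouring groups. MPP4 minus HSC was 0.36 (SE 0.13) for H3f3a and -0.27 (SE 0.13) for H3f3b, so the pair had opposite signs. H3f3a (chr1:180800832-180813943, minus strand) shares 44.8% of its end words with other genes, most often H3f3c, and is overlapped on the other strand by H3f3aos and Gm17275; H3f3b (chr11:116021912-116027962, minus strand) shares none. H3f3a was most like Nap1l1 (r 0.77), a histone chaperone, Hmgb2 (0.745) and Lockd (0.743), and H3f3b most like Coq2 (0.836), Vmp1 (0.828) and Ric8 (0.808).

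H1f0, the linker histone H1.0 of slowly dividing and differentiated cells, was lower in MPP4 and MPP1 than in HSC by its fitted differences. It measured 156, 166, 312 and 162.5 CPM in MPP4 mutants, against 107.5, 128.5, 246 and 121 CPM in MPP4 controls. In the MPP1 libraries it stood at 262 and 192 CPM in mutants, against 236 and 149.0 CPM in controls. In the HSC libraries it stood at 185, 404 and 455.5 CPM in mutants, against 174, 293 and 217.5 CPM in controls. The highest values were HSC mutants 2 and 3, but all 3 populations overlapped. MPP4 minus HSC was -0.64 (SE 0.14), MPP1 minus HSC -0.65 (SE 0.16) and MPP4 minus MPP1 0.01 (SE 0.16). The single-exon gene lies at chr15:79028450-79030504 (plus strand) under the antisense gene Gm49544. Fli1 (r 0.823), a transcription factor of stem cells and megakaryocytes, Pdcd4 (0.813) and Rhob (0.808) were most like it.

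**Figure D2:**
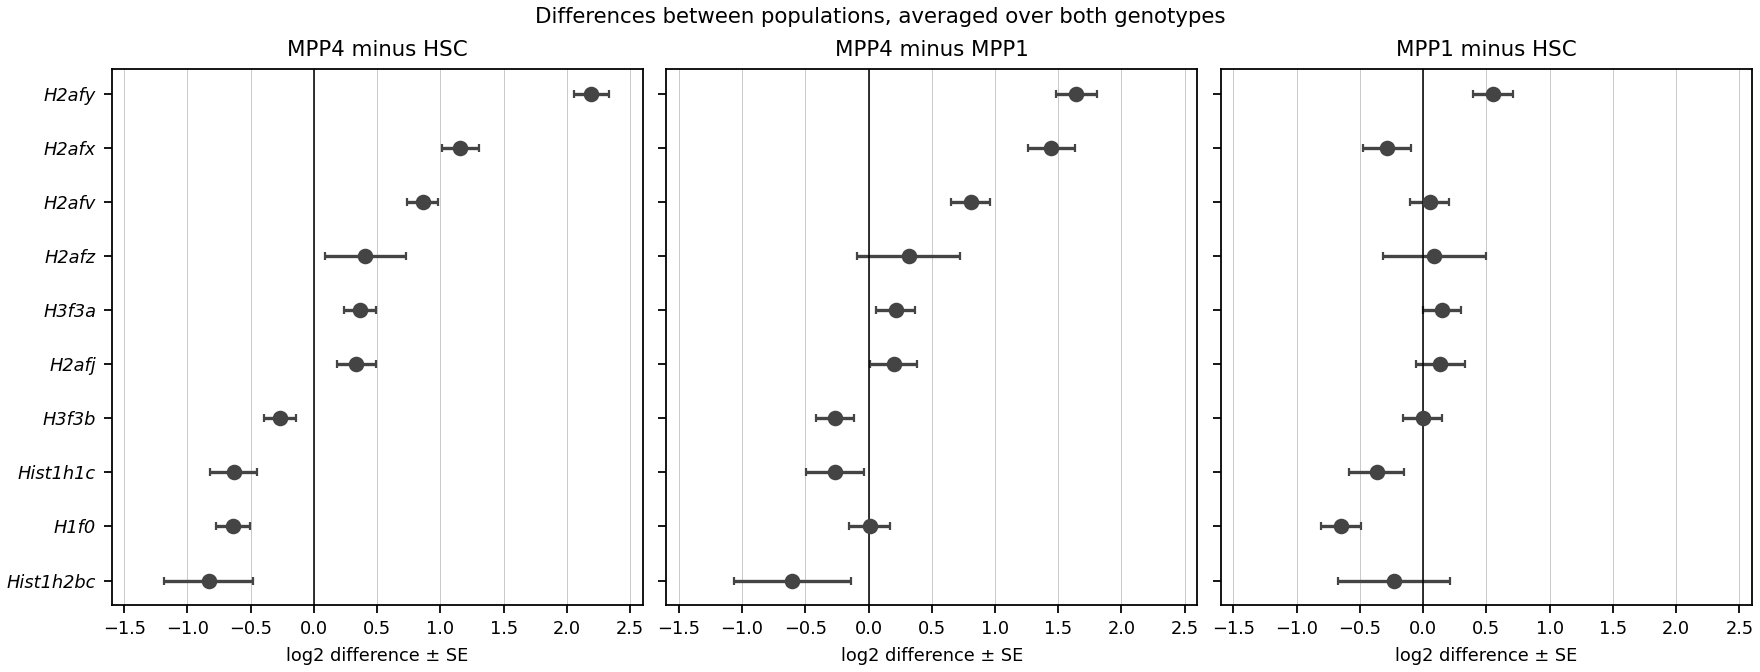
Log2 difference of each gene between populations, averaged over both genotypes, with bars of 1 SE from edgeR's model over 18 libraries. H2afy stands at 2.19 for MPP4 minus HSC, H2afx and H2afv at 1.16 and 0.86, H1f0 and Hist1h1c at -0.64 and Hist1h2bc at -0.83; the MPP1 minus HSC differences are smaller, except for H1f0 at -0.65.

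Hist1h1c, the linker histone H1.2, separated mutants from controls in every population. It measured 53.6, 96.8, 79.2 and 49.0 CPM in MPP4 mutants, against 31.1, 42.1, 36.6 and 16.1 CPM in MPP4 controls. Levels in MPP1 were 66.8 and 81.3 CPM in mutants, against 34.1 and 34.96 CPM in controls. Levels in HSC were 80.6, 78.85 and 82.2 CPM in mutants, against 59.0, 48.1 and 56.4 CPM in controls. All mutants lay above all controls of their own population, while over all populations the 9 mutants (49.0 to 96.8 CPM) and the 9 controls (16.1 to 59.0 CPM) overlapped. The log2 difference, mutant minus control, was 1.02 (SE 0.28) in MPP4, 1.11 (SE 0.34) in MPP1 and 0.57 (SE 0.27) in HSC. None passed adjustment over all genes in edgeR's quasi-likelihood test, with adjusted p of 0.213, 0.512 and 0.486 and unadjusted p of 0.00161, 0.00345 and 0.042. Plain differences of mean log2(CPM + 1), without a model, had the same sign in each batch. They were 0.77, 1.18 and 1.32 in batches A, B and C of MPP4 and 0.44 and 0.62 in batches A and C of HSC. Batches A and B hold only 1 mutant and 1 control library per population.

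Of 7738 genes tested in all 3 populations, 7 (0.0905%) had mutants above controls without overlap in all 3, and 7 (0.0905%) had mutants below controls. Hist1h1c was the only one of the 10 histone genes among these 14. The other 6 in its direction, named here after their values were seen, were Fos, Jun, Egr1 and Dusp1, which are immediate early genes, Mdh2, a malate dehydrogenase, and Xlr3a. The populations share ID numbers, so the 3 comparisons are not independent of each other. By the rule on similar patterns, Hist1h1c was most like Dusp1 (r 0.875), Ier2 (0.854) and Jun (0.781) over the 18 libraries. These correlations use the same libraries as the separation of genotypes above, so they are not a second, separate observation. Its counts were low, from 4 to 95 per library, and the single-exon gene, at chr13:23738808-23740367 (plus strand), shares no end words with other genes. MPP4 minus HSC was -0.64 (SE 0.18), with -0.476 (SE 0.24) in mutants and -0.795 (SE 0.28) in controls. The populations overlapped.

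Hist1h2bc had the largest fitted genotype difference of the 10 and the lowest counts. It measured 21.2, 43.0, 10.2 and 16.3 CPM in MPP4 mutants, against 9.77, 40.3, 2.335 and 16.1 CPM in MPP4 controls. For MPP1 the values were 18.7 and 14.6 CPM in mutants, against 10.4 and 3.68 CPM in controls, and was too low there to be tested. For HSC the values were 49.3, 42.0 and 13.2 CPM in mutants, against 16.4, 6.35 and 5.37 CPM in controls. HSC mutants 1 and 2 lay above all HSC controls and HSC mutant 3 within their range. Mutant minus control was 1.95 (SE 0.45) in HSC, with an adjusted p of 0.0511, and 0.82 (SE 0.46) in MPP4, with an adjusted p of 0.785, both by edgeR. The MPP4 value was 0.38 without MPP4 control 3 and 1.25 without MPP4 mutant 2. MPP4 minus HSC was -0.83 (SE 0.35), with all populations overlapping. Counts ran from 2 to 91 per library. The gene spans chr13:23684199-23692908 (plus strand, 2 exons), and 4.0% of its end words occur in other genes. Its most similar patterns were Cs (r 0.803), H2-Q6 (0.788) and Ldha (0.761).

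No histone gene of the 10 passed the threshold between genotypes in the main model. By edgeR's quasi-likelihood test with Benjamini-Hochberg adjustment over all genes at 0.05, 0 of 10 were called in MPP4 (0.106% of 9392 genes), 0 of 9 in MPP1 (0.225% of 8004) and 0 of 10 in HSC (0.241% of 9147). At an unadjusted p under 0.05 there were 4, 3 and 6 of them, beside 669, 389 and 916 of all genes. DESeq2 called 1 in MPP4, H2afz, and none in MPP1 or HSC. In the authors' deposited tables no member passed 0.05 either, with adjusted p of 1.0 in MPP4, 0.998 in MPP1 and 0.962 to 1.0 in HSC.

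The estimates nevertheless lay mostly on one side in MPP4 and HSC. In MPP4 10 of 10 log2 differences were above 0, against 49.5% of all genes, and their median was 0.41, against -0.005 over all genes. In HSC 9 of 10 were above 0, against 51.4%, with a median of 0.54 against 0.013. In MPP1 4 of 9 were above 0, against 49.6%, with a median of -0.07 against -0.004. These genes share libraries and are not independent of each other. The list was selected on earlier results of these libraries, and genotype differences may have been among them. The shares are therefore a description and not a test. Non-overlapping genotypes were found for 1 gene in MPP4 (Hist1h1c, against 3.09% of all genes in either direction) and for 3 in HSC (H2afz, H2afv and Hist1h1c, against 9.35%). In MPP1, where groups of 2 separate often, there were 4 (Hist1h1c and Hist1h2bc higher, H2afx and H2afv lower), against 33.8% of the genes tested. Hist1h2bc was too low to be tested in MPP1 and lies outside the genes of that share.

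Among single genes, H2afz was higher in MPP4 mutants by 1.13 (SE 0.28, adjusted p 0.2) and in HSC mutants by 1.07 (SE 0.27, adjusted p 0.115), in edgeR's test. Without HSC mutant 1 the HSC value was 0.64 and without HSC control 2 it was 1.45, with an adjusted p of 0.009. As a plain difference of mean log2(CPM + 1), without a model, it was 1.57 in batch A, 0.64 in batch B and 1.38 in batch C of MPP4. In HSC that difference was 1.85 in batch A and 0.73 in batch C. Batches A and B hold only 1 mutant and 1 control library per population. A block by replicate number was an alternative model. The labels do not give this pairing, and the numbers match different ID numbers in HSC than in MPP1 and MPP4. With that replicate block 2 HSC genes passed in edgeR, H2afz at 1.10 (adjusted p 0.0251) and Hist1h2bc at 1.997 (adjusted p 0.00878). Hist1h2bc also passed without HSC mutant 3, at 2.21 (adjusted p 0.00727), and was 1.36 without HSC mutant 2. H2afx was higher in MPP4 mutants by 1.01 (SE 0.25, adjusted p 0.153 in edgeR), and passed at 1.25 (adjusted p 0.0289) without MPP4 mutant 4. In MPP1, H2afx was lower in mutants by a log2 difference of -0.82 (SE 0.33, adjusted p 0.869 in edgeR), which was -0.35 without MPP1 control 2 and -1.24 (adjusted p 0.0506) without MPP1 control 1. H2afy showed the smallest difference in MPP4, at 0.05 (SE 0.25), with -0.07 (SE 0.30) in MPP1 and -0.20 (SE 0.24) in HSC.

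**Figure D3:**
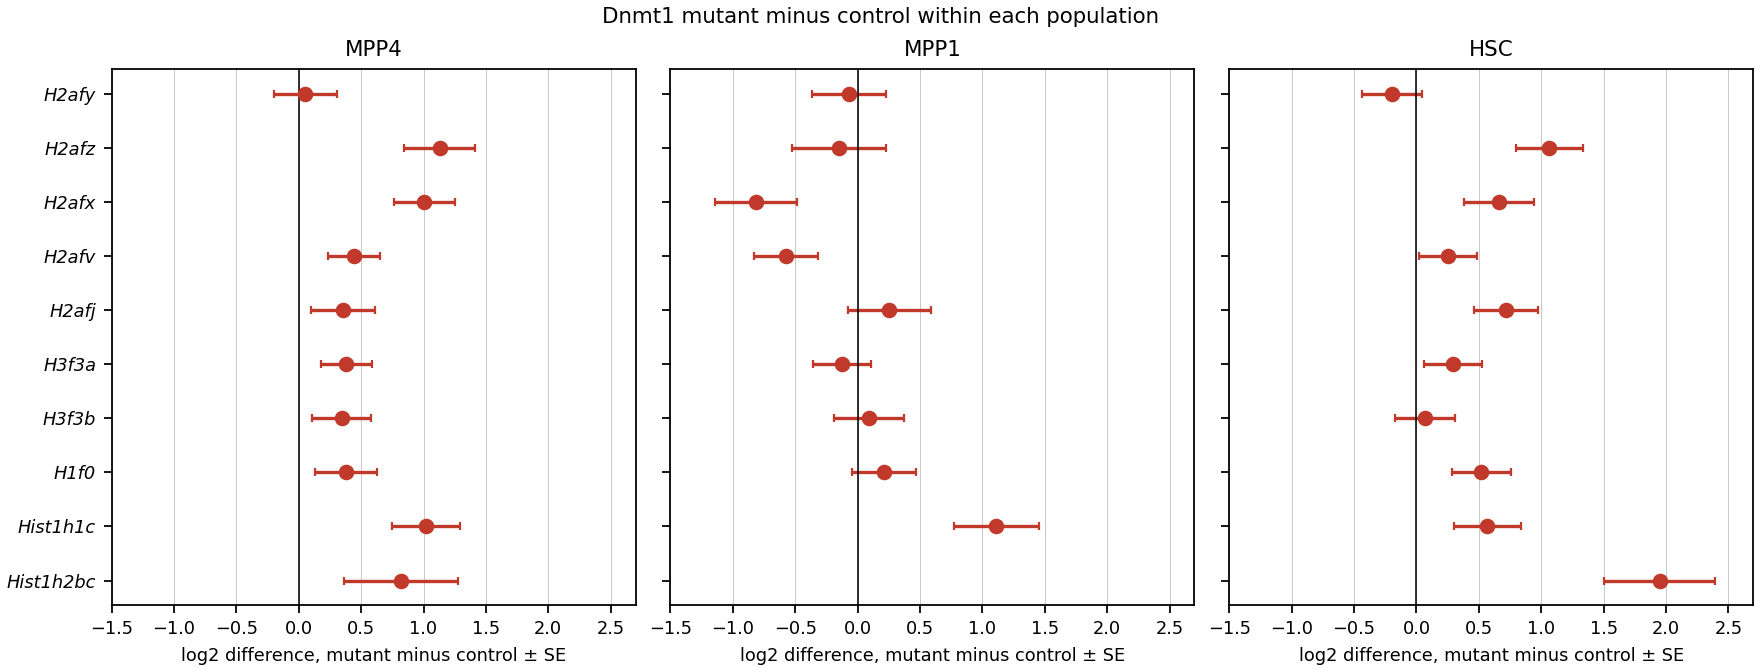
Log2 difference, mutant minus control, of each gene within MPP4, MPP1 and HSC, with bars of 1 SE from edgeR's model of that population; Hist1h2bc was not tested in MPP1. All 10 estimates lie above 0 in MPP4 and 9 of 10 in HSC, H2afx and H2afv lie at -0.82 and -0.58 in MPP1, and none passed adjustment over all genes.

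Summed levels of mitotic genes also separated the genotypes in MPP4 and HSC. Genes of G2 and mitosis, summed over 40 genes, were 7334 to 8267 CPM in MPP4 mutants against 3699 to 6285 CPM in MPP4 controls, and 3156 to 4056 CPM in HSC mutants against 1711 to 2591 CPM in HSC controls. In MPP1 they were 3075 to 3803 CPM in mutants against 3684 to 4459 CPM in controls. The mutants lay above the controls in MPP4 and HSC without overlap and overlapped with them in MPP1. Of the single G2 and mitosis genes, 1 of 40 passed in MPP4, 0 in MPP1 and 0 in HSC, and at an unadjusted p under 0.05 there were 29, 4 and 28. S phase genes overlapped in MPP4 (5035 to 6186 CPM in mutants, 4565 to 6129 in controls) and in MPP1 (2958 to 3974 in mutants, 3791 to 4127 in controls), and lay at 3488 to 4584 CPM in HSC mutants against 2162 to 3458 CPM in HSC controls. In HSC 39 of 40 S phase genes had log2 differences above 0, of which 1 passed. The same counts for other lists varied by population. Replication-dependent histones were above 0 for 9 of 11 genes in MPP4 (median 0.76), 3 of 5 in MPP1 (median 0.07) and 5 of 6 in HSC (median 1.17). Stem cell identity genes were above 0 for 4 of 11 in MPP4 (median -0.60), 11 of 17 in MPP1 (median 0.13) and 4 of 20 in HSC (median -0.44). Erythroid genes were above 0 for 3 of 8 in MPP4 (median -1.42), 2 of 7 in MPP1 (median -0.79) and 13 of 15 in HSC (median 1.10). Single libraries stood out in the summed erythroid markers. HSC mutant 1 had 16166 CPM, against 1242 and 1150 in HSC mutants 2 and 3 and 1126 to 1547 in HSC controls. MPP1 control 2 had 32373 CPM, against 1008 in MPP1 control 1 and 938 to 1079 in MPP1 mutants. In MPP4, mutant 2 had 238651 CPM and control 4 had 45658 CPM. None of these 3 lists had a gene past the threshold. The part of these transcripts in the histone gene differences was not tested.

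The difference of the mutant effect between populations was tested in the model over 18 libraries. None of the 10 genes passed for MPP4 against HSC (0.0283% of 10613 genes called), MPP1 against HSC (0.0%) or MPP4 against MPP1 (0.0%), with 0, 2 and 2 of the 10 at an unadjusted p under 0.05 in edgeR, beside 413, 505 and 468 of all genes. Both times the 2 were H2afx and H2afv. For H2afx the mutant effect in MPP4 minus that in MPP1 was 1.26 (SE 0.37, adjusted p 0.985 in edgeR), and that in MPP1 minus that in HSC was -1.09 (SE 0.37, adjusted p 0.923). Without MPP1 mutant 1 these values were 0.79 and -0.63, and without MPP1 mutant 2 they were 1.86 and -1.70. For H2afv the differences were 0.99 (SE 0.31, adjusted p 0.985) and -0.68 (SE 0.31, adjusted p 1.0). For Hist1h1c the differences were 0.32 (SE 0.37) for MPP4 minus HSC, 0.47 (SE 0.44) for MPP1 minus HSC and -0.15 (SE 0.46) for MPP4 minus MPP1.

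The machinery that makes and places histones was compared between populations from lists that leave the 10 genes out. In MPP4 against HSC, 10.8% of 10613 genes were called higher and 9.2% lower by edgeR's adjusted p. CENP-A loading, which places the centromeric H3 variant, had 5 of 6 genes higher, among them Hjurp (0.68, SE 0.12), the chaperone of that variant. Of the general and replication-coupled histone chaperones, 6 of 20 were higher, among them Nasp (0.68, SE 0.15), which carries H3 and H4, and Chaf1a (0.76, SE 0.19), a subunit of the CAF-1 complex. In the H2A.X pathway 5 of 17 were higher, with Brca1 (1.24, SE 0.24) and its partner Bard1 (1.21, SE 0.27), and 2 were lower, the phosphatase Eya2 (-1.22, SE 0.26) and the adaptor Mdc1 (-0.47, SE 0.16). For H3.3 deposition 2 of 10 were higher, Atrx (0.49, SE 0.13) and Dek (0.50, SE 0.14), and for H2A.Z exchange 1 of 19, Brd8 (0.44, SE 0.14). None of 10 genes for histone mRNA 3′ end processing was called.

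Other histone genes followed in the same comparison. Of 3 tested further variants, 2 were higher in MPP4, H2afy2 (2.72, SE 0.53), which encodes macroH2A2, and Cenpa (0.67, SE 0.16), the centromeric H3. H2afy2 was low, at 4.30 to 30.7 CPM in MPP4 and 0.0 to 8.05 CPM in HSC. Of 60 replication-dependent histone genes 15 had enough counts to test, and 3 of them were higher, Hist1h1b (1.42, SE 0.23), Hist1h2ae (1.36, SE 0.34) and Hist1h1a (1.19, SE 0.37). S phase genes were higher for 31 of 40 and G2 and mitosis genes for 38 of 40, so most of the proliferation transcripts were higher in MPP4 too, and their part in the histone gene differences was not tested.

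**Figure D4:**
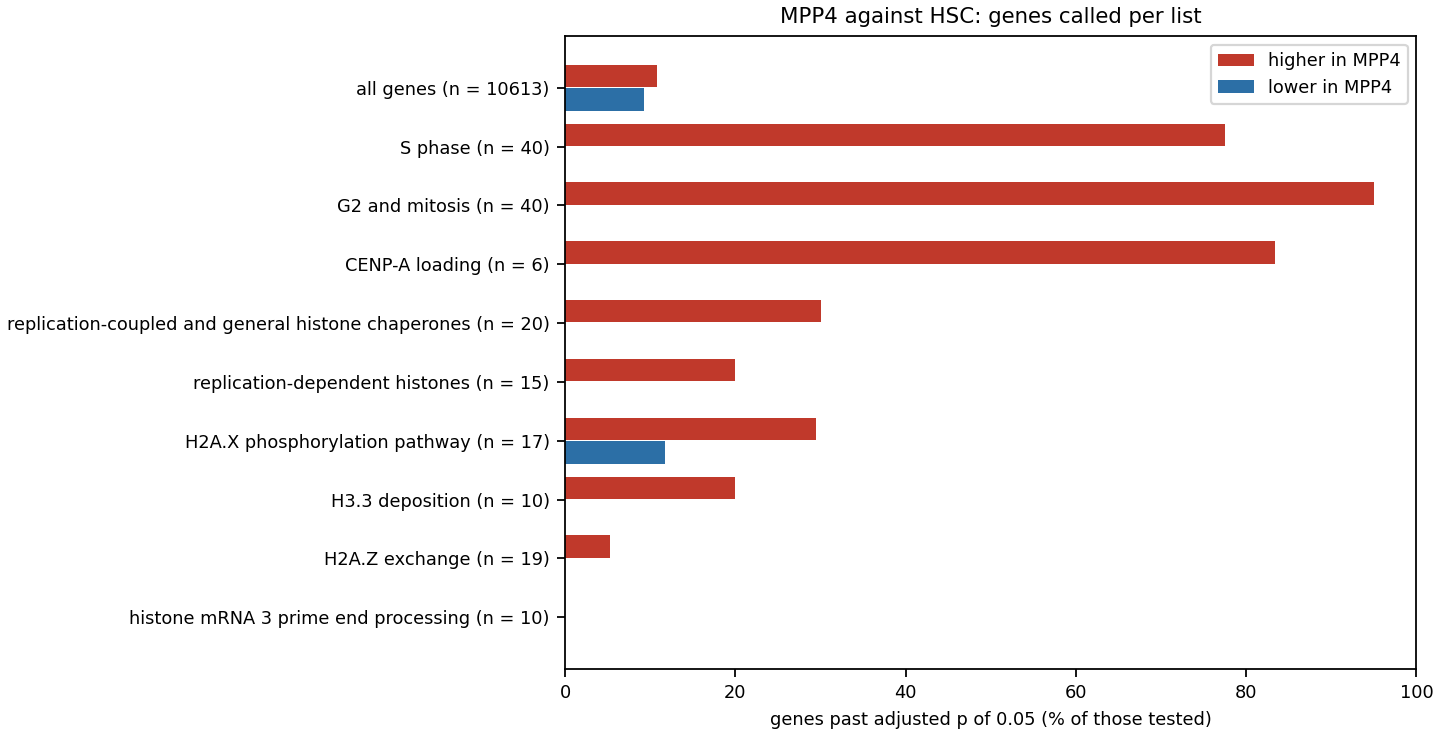
Share of the tested genes of each list called higher or lower in MPP4 than in HSC by edgeR at an adjusted p of 0.05, with all 10613 genes at the top (10.8% higher, 9.2% lower). G2 and mitosis (38 of 40 higher), S phase (31 of 40) and CENP-A loading (5 of 6) have the longest bars, while H2A.Z exchange (1 of 19) and histone mRNA 3′ end processing (0 of 10) have the shortest.

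Fewer genes of these lists were called between MPP4 and MPP1, where 5.7% of all genes were higher and 5.46% lower. H2afy2 (2.02, SE 0.60), Cenpa (0.79, SE 0.20), Hist1h1b (1.10, SE 0.26), Hist1h2ae (1.32, SE 0.43), Hjurp (0.45, SE 0.15), Anp32b (0.56, SE 0.16), Hat1 (0.52, SE 0.17), Brd8 (0.51, SE 0.17), Bard1 (1.05, SE 0.34) and Brca1 (0.94, SE 0.31) were higher in MPP4, and Eya2 (-1.38, SE 0.33) was lower. Between MPP1 and HSC, with 0.254% of all genes higher and 0.113% lower, no gene of the histone variant, chaperone, exchange, loading, H2A.X or 3′ end lists was called. Between genotypes no gene of those lists was called in any population.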

How the data were processed

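Estimated counts per gene and library were deposited by the authors for each population. Per the submitters' processing notes the build was mm10 and the tools included R 3.4.0 and DESeq2; neither aligner nor counter is given in the sources used here. The deposited values are counts corrected for UMI collisions: 100.0% of 1557 values from 1000 up, below the highest (36909), lay on the grid that UMIs of 6 bases give, against 62.019% of all whole numbers in a range from 1000 up. The authors' deposited tables give log2 fold changes, p-values and adjusted p-values. Total counts per library limit precision for the low genes, and intervals given as SE cover the spread between libraries.

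Counts were tested with edgeR 4.0.16 (R 4.3.3) by the quasi-likelihood test with robust dispersion, TMM scaling and filterByExpr at a minimum count of 10. Mutant was set against control within each population, with the sequencing batch that the labels give as a term in MPP4 and HSC (all MPP1 libraries are of batch C). Populations were compared in a joint model of the 18 libraries, blocked by ID number. Python 3.11.15 made the summaries. DESeq2 1.42.0, size factors, filters, batch terms, the replicate block and left-out libraries were alternatives. Code was tested on simulated data. Similarity is Pearson's r of log2 CPM (prior count 2) over genes with a mean of at least 50 CPM.

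The 10 genes and all gene lists were chosen with earlier results of these data known. All 10 are named, with up to 2 genes per direction and list by smallest adjusted p, further genes of a list where few were called, and the 3 genes most like each member; 1 gene that the rule names is not reported here. The labels do not say that libraries of a group came from separate animals; p-values therefore reflect only the variation among these libraries, in part perhaps technical. Libraries of 1 group differed from each other by more than counting noise (chi-square over its degrees of freedom, 2.959 to 73.924). The deviations of same-numbered mutant and control libraries correlated at 0.458, 0.218 and 0.203 in HSC, while in MPP4 the lowest was -0.11, and MPP1 has 2 pairs. Same-numbered HSC libraries also share a batch, so these correlations do not show pairing. The replicate block is therefore an alternative setting only. The same ID number in different populations correlated at 0.067 to 0.42 over 14 pairs.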

Additional observations from a re-analysis of the deposited data

Results flagged for a closer look

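In 20 sets of 4 MPP4 libraries, the gap from the highest or lowest library to its neighbour was compared with Dixon's 95% limit for 4 samples (0.829), which chance passes in about 1 in 20 groups; 3 sets passed. H2afv in MPP4 mutant 1, a batch A library, stood at 462.5 CPM, with the other MPP4 mutants at 252 to 285 CPM. H1f0 stood at 311.7 CPM in MPP4 mutant 3, with the other MPP4 mutants at 156 to 166 CPM. H1f0 also stood at 246.0 CPM in MPP4 control 3, with the other MPP4 controls at 107.5 to 128.5 CPM.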

How the results depend on the processing

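The population differences of H2afy kept their direction under all 26 alternatives, at 2.03 to 2.37 for MPP4 minus HSC, and so did the genotype differences of Hist1h1c, at 0.77 to 1.20 in MPP4 under 16, 0.96 to 1.24 in MPP1 under 9 and 0.46 to 0.65 in HSC under 13, with no adjusted p below 0.0971. The number of members called between genotypes, 0 in the main edgeR model, was 1 in MPP4 with DESeq2 (H2afz, adjusted p 0.0418), 2 in MPP4 without a filter on low counts (H2afx and H2afz, adjusted p 0.018 and 0.0036), 2 in HSC without that filter (H2afz and Hist1h2bc, adjusted p 0.00657 and 0.00249) and 2 in HSC with the replicate block, and 0 in MPP4 without MPP4 control 4 and MPP4 mutant 2; the block changed no other call of a member. With that filter removed the genes called in all were 88 in MPP4, 41 in MPP1 and 83 higher with 29 lower in HSC, against 10, 18 and 22 in the main model; DESeq2 called 31, 15 and 14, and the replicate block 11, 42 and 39. The cause was not tested. With 1 library left out at a time, the number of members called was 0 to 1 in MPP4, 0 to 0 in MPP1, 0 to 1 in HSC and 0 to 0 for the 3 differences of effect.

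The members' median population difference, 0.35 for MPP4 minus HSC, was 0.19 without HSC control 1, HSC mutant 1 and MPP1 control 2, and 0.24 to 0.41 with 1 library left out. For MPP1 minus HSC, 0.02, it was -0.19 in mutants alone and 0.26 in controls alone (-0.066 to 0.12 with 1 library left out), and for MPP4 minus MPP1, 0.21, it was -0.042 in controls alone (0.17 to 0.25).

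For MPP1 minus HSC, the sign of the population difference was kept under 16 of 26 alternatives for H3f3b (-0.11 to 0.093), 18 for H2afz (-0.56 to 0.72), 22 for H2afv (-0.27 to 0.39) and Hist1h2bc (-1.17 to 0.28), and 25 for H2afx (-0.81 to 0.26), H2afj (-0.03 to 0.29) and H3f3a (-0.013 to 0.26). For MPP4 minus MPP1 it was kept under 15 for H1f0 (-0.10 to 0.17), 24 for H2afz (-0.33 to 0.84) and 25 for Hist1h2bc (-1.10 to 0.35). Signs also turned for genotype differences and differences of effect, none of which passed the threshold. H2afy in HSC was 0.014 in batch C alone. For the difference of effect between MPP4 and HSC, leaving out MPP4 control 4 and MPP4 mutant 2, an alternative chosen after seeing the data, gave -0.002 for H2afx and -0.18 for H2afz, and for MPP4 minus MPP1 it gave 0.19 for H2afj. For MPP1 minus HSC, H2afy was -0.028 without the filter, -0.10 in batch C alone and -0.23 without HSC control 1, HSC mutant 1 and MPP1 control 2, where H2afz was 0.30 and H3f3b 0.16. With no replicate block by ID number and batch in its place, H3f3b was 0.008 for MPP1 minus HSC, and for MPP4 minus MPP1 H2afj was 0.12 and Hist1h2bc -0.21. With 1 library left out, the genotype difference ranged over H2afy -0.026 to 0.15 in MPP4; over H2afj -0.38 to 0.65, H1f0 -0.06 to 0.59, H2afz -0.75 to 0.59, H3f3a -0.26 to 0.004, H2afy -0.36 to 0.18, H3f3b -0.02 to 0.20 in MPP1; and over H2afy -0.33 to 0.014, H3f3b -0.075 to 0.23 in HSC. The difference of effect ranged over H2afz -0.28 to 0.47, H1f0 -0.39 to 0.12, H2afx -0.063 to 0.37 for MPP4 minus HSC; over H2afy -0.20 to 0.21, H2afj -0.47 to 0.094, H3f3b -0.30 to 0.11, Hist1h2bc -1.80 to 0.81, H2afz -2.18 to 0.14 for MPP1 minus HSC; and over Hist1h1c -0.41 to 0.28, Hist1h2bc -1.44 to 1.25, H2afj -0.29 to 0.19 for MPP4 minus MPP1. Where 1 library of a group remained, it was assumed to vary like the others. The UMI supply limits H2afy in MPP4, and low counts limit Hist1h2bc.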
